A study of Mus musculus with 217 samples.

Results

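The genes described here encode the brain cannabinoid receptor, a protein that binds it, and the enzymes that make and break down its lipid ligands. They are 8 listed genes (*Cnr1*, *Cnrip1*, *Dagla*, *Daglb*, *Mgll*, *Abhd6*, *Napepld* and *Faah*) of 54532 genes in the count tables, given by name, and each was found in both tables. The rule used no measured value, although the genes were listed with earlier results of these data known. All 8 were kept for testing in every tissue and age, since each was counted in every library.

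Endocannabinoids are lipid messengers released on demand from neurons. The CB1 receptor (*Cnr1*) couples to inhibitory G proteins and lowers transmitter release from the terminals that carry it, and in the striatum it is abundant in spiny projection neurons and on their axons. *Cnrip1* encodes a protein that binds the tail of CB1. The ligand 2-arachidonoylglycerol (2-AG) is made from diacylglycerol by the lipases of *Dagla* and *Daglb* and hydrolysed by those of *Mgll* and *Abhd6*, whereas anandamide is formed in part through the phospholipase of *Napepld* and is hydrolysed by the amide hydrolase of *Faah*. A low level of striatal CB1 is a known feature of Huntington's disease and of its mouse models.

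RNA-Seq libraries came from striatum (107) and cortex (110) of 110 mice, 107 of which gave both tissues, with 100 libraries at 6 months and 117 at 12 months. All mice were on C57BL/6 and carried a β-actin-promoter transgene for the lac repressor (*LacIR*), which is not restricted to one cell type. Mutant mice (labelled *Hdh* LacO-140Q/+) had 1 knocked-in allele of *Hdh*, the huntingtin gene, with lac operators and the expanded repeat, and wild-type mice (labelled *Hdh* LacO-+/+) had no expanded allele. IPTG releases the repressor. LacQ140 mice received IPTG from embryonic day 5 onward, and LacQ140_2M and LacQ140_8M mice received it from the same day until 2 or 8 months of age. LacQ140_A mice never received it, so that their mutant allele was repressed from conception. The paper describes the lowering as moderate, so the repressed allele was still expressed in part. Wild-type mice received IPTG (WT_IPTG) or none (WT). There were 10 mice per group, 5 of each sex, but 9 in the 12-month striatum of WT, LacQ140 and LacQ140_8M. LacQ140_8M was sampled at 12 months alone. The ages were labelled as separate batches and deposited in separate tables, so age and batch cannot be told apart.

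Library totals were 33292014 to 68038785 counts, and levels are given as CPM (each count divided by its library's scaled total) after TMM scaling. A gene was called when edgeR's quasi-likelihood test gave a Benjamini-Hochberg adjusted p under 0.05 over all genes and the change was at least 20%, taken as a fold of 1.2 up or down. Changes are on the log2 scale with their standard error (SE), and all adjusted p-values below come from this test. In tests of whether an effect differed between ages, tissues or sexes, shares of all genes called rest on the adjusted p alone. Members with an adjusted p under 0.05 in those tests all passed the 20% bound as well. *Htt*, the targeted gene, is counted over both alleles. In the 12-month striatum its mean was 146 CPM in WT_IPTG, 111 in LacQ140, 111 in LacQ140_8M, 100.3 in LacQ140_2M and 93.4 in LacQ140_A. *Htt* was lower in LacQ140 than in WT_IPTG (log2 fold change -0.40, SE 0.069, adjusted p = 9.0e-06), and against LacQ140 none of the lowered groups passed both bounds (-0.25 in LacQ140_A, adjusted p = 0.049; -0.15 in LacQ140_2M, adjusted p = 0.56; -0.00 in LacQ140_8M, adjusted p = 1). At 6 months the value for LacQ140_A against LacQ140 was -0.21 (adjusted p = 0.075). Summed *Htt* counts thus do not by themselves separate the lowered groups from LacQ140 by the call used here.

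Promoter sequence is shown for *Cnr1* and *Faah*, the receptor and the hydrolase whose striatal levels moved furthest in opposite directions. The *Cnr1* stretch ends at a RefSeq start site and the *Faah* stretch just short of one, at the first base of an annotated exon. Both are from build GRCm38.p6, written 5′ to 3′ on the gene's strand, with the GC-box letters GGGCGG and their reverse complement CCGCCC in capitals. *Cnr1* lies on the plus strand of chromosome 4 (gene 4:33924593-33948831, printed stretch 4:33924014-33924263). *Faah* lies on the minus strand of the same chromosome (gene 4:115967145-116017926, printed stretch 4:116017927-116018174).
*Cnr1* promoter: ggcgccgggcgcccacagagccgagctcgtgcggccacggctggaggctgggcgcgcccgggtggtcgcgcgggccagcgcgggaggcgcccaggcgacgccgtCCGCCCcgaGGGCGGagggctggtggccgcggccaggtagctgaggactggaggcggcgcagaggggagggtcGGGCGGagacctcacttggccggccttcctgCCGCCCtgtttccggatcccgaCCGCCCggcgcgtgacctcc
*Faah* promoter: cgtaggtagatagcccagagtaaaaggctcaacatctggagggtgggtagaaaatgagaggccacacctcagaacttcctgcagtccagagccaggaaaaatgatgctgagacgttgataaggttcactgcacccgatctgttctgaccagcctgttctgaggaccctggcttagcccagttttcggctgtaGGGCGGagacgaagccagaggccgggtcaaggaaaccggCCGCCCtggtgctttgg

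The *Cnr1* stretch held 5 matches and the *Faah* stretch held 2. These letters were found in 32.7% of 32851 promoter windows of the same 250 bases, so their presence sets neither gene apart. A second annotated *Cnr1* start, with 199 bases before it outside exons (4:33924394-33924592), had no match. A match is a string of letters and not a measured binding site.

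Levels were compared between genes per kilobase of the longest annotated transcript, over the 19 or 20 control mice (WT and WT_IPTG together) of each tissue and age. In 6-month control striatum the order by median was *Mgll* (40.5 CPM per kb), *Cnr1* (33.6), *Abhd6* (18.8), *Cnrip1* (13.96), *Dagla* (13.7), *Daglb* (6.25), *Faah* (3.52) and *Napepld* (1.94). *Mgll* and *Cnr1* overlapped between mice, as did *Abhd6*, *Cnrip1* and *Dagla* as neighbours, and *Faah* and *Napepld*. Thus the receptor and the main hydrolase of 2-AG stood above the rest in striatum, and both genes of the anandamide pair were lowest. The 12-month striatum gave the same first and last places, from *Mgll* at 45.2 and *Cnr1* at 37.9 to *Faah* at 3.36 and *Napepld* at 1.89 CPM per kb, with *Dagla* in the place after *Cnr1* at 19.2.

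Cortex had a different order. At 6 months *Mgll* stood first at 87.8 CPM per kb and *Cnrip1* second at 36.7, with no overlap between them, while *Cnr1* (13.6), *Faah* (13.6) and *Dagla* (15.01) overlapped. At 12 months *Mgll* was at 64.2, *Cnrip1* at 46.7, *Abhd6* at 30.7, *Faah* at 10.7, *Cnr1* at 9.66, *Daglb* at 6.88, *Dagla* at 3.65 and *Napepld* at 2.66 CPM per kb. There *Mgll* and *Cnrip1* overlapped, as did each pair of neighbours from *Faah* down to *Napepld*.

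The 2 tissues of control mice were compared in a fit with the mouse as a block. At 6 months 7 of the 8 genes were called, 1 higher and 6 lower in striatum, where 33.2% of all genes were called. *Cnr1* was higher in striatum (log2 fold change 1.25, SE 0.076, adjusted p = 8.6e-15). *Faah* (-1.97, SE 0.049), *Cnrip1* (-1.35, SE 0.039), *Mgll* (-1.09, SE 0.041), *Napepld* (-1.08, SE 0.076), *Daglb* (-0.40, SE 0.036) and *Abhd6* (-0.37, SE 0.033) were lower, with adjusted p-values of 2.3e-13 or less except for *Daglb* (9.3e-11) and *Abhd6* (6.3e-11). *Dagla* differed by -0.19 (adjusted p = 0.012), under the 20% bound. The receptor and its binding partner therefore lay on opposite sides of the tissue comparison.

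At 12 months 7 of 8 genes were again called, against 53.8% of all genes. The striatum minus cortex difference was 1.87 for *Cnr1*, -2.14 for *Cnrip1*, -1.83 for *Faah*, -1.07 for *Abhd6*, -0.64 for *Napepld* and -0.61 for *Mgll* on the log2 scale, and *Daglb* (-0.22) fell under the bound. *Dagla* was now higher in striatum by 2.15 (SE 0.105, adjusted p = 1.4e-18), and its cortical medians were 20.1 to 23.6 CPM at 12 months against 75.9 to 91.5 CPM at 6 months. In the 12-month cortex the slope of log2 CPM on log2 transcript length was negative in every library, from -0.48 to -0.03, whereas in the other tissue and age sets it lay between -0.00 and 0.46. Within the groups of the 12-month cortex, *Dagla* followed this slope closely (Pearson r = 0.92 over 60 libraries of 1 batch), as did *Mgll* (0.80), *Faah* (0.78) and *Daglb* (0.76), while *Abhd6* ran against it (-0.57). The drop in cortical *Dagla* and the change in the length slope cannot be told apart here. In the same libraries *Cnrip1* (-0.54) also ran against the slope, and *Cnr1* (0.47) and *Napepld* (0.41) went with it. Median slopes at 12 months were -0.26 in cortex and 0.34 in striatum. The 12-month tissue differences, and the share of all genes called, cannot be told apart from that gap.

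IPTG alone moved none of the 8 genes past the call. WT_IPTG against WT called 0 of 8 in striatum at 6 months (0.584% of all genes) and 12 months (0.218%) and in cortex at 6 months (0.609%) and 12 months (0%), in edgeR and in DESeq2, with 2 to 3 members at an unadjusted p under 0.05 in each. The largest value was for *Napepld* in the 6-month striatum (0.31, SE 0.091, adjusted p = 0.11), with medians of 7.33 CPM in WT and 8.88 CPM in WT_IPTG. In the 12-month cortex *Abhd6* was 0.23 higher with IPTG (SE 0.075, adjusted p = 0.48), and in the 12-month striatum *Dagla* was 0.18 higher (SE 0.062, adjusted p = 0.18). These differences lay on the side of the wild-type control used below and are given again where they bear on a call.

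In the striatum the receptor fell and the anandamide hydrolase rose in LacQ140 mice, at both ages and more at 12 months. At 6 months 2 of the 8 genes were called against WT_IPTG, *Cnr1* lower and *Faah* higher, where 7.93% of all genes were called, or 15.8% of the genes that pass edgeR's filter on low counts. At 12 months 4 of 8 were called, *Cnr1* and *Dagla* lower and *Faah* and *Cnrip1* higher, where 9.44% of all genes were called, or 18.3% of those past the filter. Each direction took about as many of all genes as the other (3.97% higher and 3.96% lower at 6 months, 4.58% and 4.86% at 12 months).

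*Cnr1*, the receptor, was measured at 166.7, 185.7 and 265.0 CPM (lowest, median and highest of 10 mice) in 6-month WT_IPTG striatum and at 96.4, 128.4 and 147.7 CPM in LacQ140. Every LacQ140 mouse lay below every WT_IPTG mouse, and WT mice (174.7, 201.7 and 260.04 CPM) stood with WT_IPTG. It fell by 36% (log2 fold change -0.64, SE 0.076, adjusted p = 4.3e-09). Ranges of this pair of groups were free of overlap in 1.15% of all genes.

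At 12 months *Cnr1* was at 182.5, 216.0 and 273.8 CPM in WT_IPTG and at 93.6, 99.99 and 118.4 CPM in the 9 LacQ140 mice. The ranges were far apart, with the highest LacQ140 mouse below the lowest wild-type mouse of either group. *Cnr1* fell by 53.4% (log2 fold change -1.10, SE 0.077, adjusted p = 1.1e-18), with ranges free of overlap in 2.07% of all genes. The LacQ140 effect was larger at 12 than at 6 months by -0.46 on the log2 scale (SE 0.112, adjusted p = 0.0084), a test of the difference between the ages that called 2.2% of all genes.

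*Cnrip1*, whose product binds CB1, moved the other way. At 6 months it was at 26.5, 31.6 and 36.3 CPM in WT_IPTG and 31.2, 37.1 and 40.7 CPM in LacQ140, overlapping groups that differed by 14.7% (log2 fold change 0.20, SE 0.063, adjusted p = 0.026), under the 20% bound. At 12 months the levels were 22.2, 25.5 and 28.0 CPM against 29.4, 33.3 and 45.3 CPM, with no overlap. The increase was 36.4% (log2 fold change 0.45, SE 0.062, adjusted p = 4.3e-08). WT mice without IPTG stood higher than WT_IPTG mice, at 25.1, 27.1 and 34.3 CPM, and overlapped LacQ140. The difference between the ages, 0.25, was not called (SE 0.089, adjusted p = 0.13).

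Of the 2-AG synthases, *Dagla* encodes the lipase that supplies most 2-AG in the brain. *Dagla* did not pass the test at 6 months (medians of 77.2 CPM in WT_IPTG and 71.9 CPM in LacQ140, log2 fold change -0.05, SE 0.080, adjusted p = 0.79). By 12 months *Dagla* stood at 95.2, 117.8 and 127.6 CPM in WT_IPTG and at 76.5, 93.2 and 100.3 CPM in LacQ140. The groups overlapped, with 6 of 9 LacQ140 mice below the WT_IPTG range and all 9 below its median. The decrease of 20.7% (log2 fold change -0.33, SE 0.062, adjusted p = 2.8e-05) passed the bound. Against WT and WT_IPTG mice pooled it was -0.25 (adjusted p = 0.00074) and no longer a call, as WT mice had lower *Dagla* (81.9, 105.7 and 113.6 CPM) than WT_IPTG mice. *Daglb*, the second lipase, stayed between medians of 30.01 and 32.3 CPM over all striatal groups of both ages, and its LacQ140 values were -0.03 (SE 0.046, adjusted p = 0.82) and -0.09 (SE 0.048, adjusted p = 0.27).

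*Mgll* encodes monoacylglycerol lipase, the main 2-AG hydrolase. At 6 months it was at 140.9, 154.1 and 203.8 CPM in WT_IPTG and at 164.8, 188.7 and 221.7 CPM in LacQ140, and all 10 LacQ140 mice lay above the WT_IPTG median. The increase of 18.4% (log2 fold change 0.24, SE 0.055, adjusted p = 0.0012) was under the 20% bound. At 12 months the medians were 175.0 and 177.7 CPM and the groups overlapped throughout (log2 fold change -0.09, SE 0.059, adjusted p = 0.43). The effect differed between the ages by -0.33 (SE 0.081, adjusted p = 0.0089), a call. *Abhd6*, a second 2-AG hydrolase, was at 39.5, 41.7 and 43.7 CPM in 6-month WT_IPTG and 34.1, 38.2 and 40.5 CPM in LacQ140, a small decrease (log2 fold change -0.15, SE 0.045, adjusted p = 0.018, under the bound) and was not different by the test at 12 months (-0.05, adjusted p = 0.66).

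*Faah*, the hydrolase of anandamide, was at 18.3, 20.7 and 25.7 CPM in 6-month WT_IPTG striatum and at 25.6, 26.0 and 29.8 CPM in LacQ140. The groups met at a single WT_IPTG mouse, and 9 of 10 LacQ140 mice lay above the whole WT_IPTG range. The increase was 27.9% (log2 fold change 0.35, SE 0.066, adjusted p = 8.0e-05). The 12-month levels of *Faah* were 15.6, 17.4 and 25.9 CPM in WT_IPTG and 30.4, 32.5 and 46.6 CPM in LacQ140, with no overlap. It was 80.7% higher (log2 fold change 0.85, SE 0.090, adjusted p = 1.1e-11). This effect exceeded the 6-month one by 0.50 (SE 0.113, adjusted p = 0.0050). *Napepld*, on the side of anandamide synthesis, was a low gene with medians of 7.33 to 8.88 CPM and was called at neither age (-0.22, SE 0.091, adjusted p = 0.11 at 6 months; 0.03, adjusted p = 0.98 at 12 months).

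**Figure D1:**
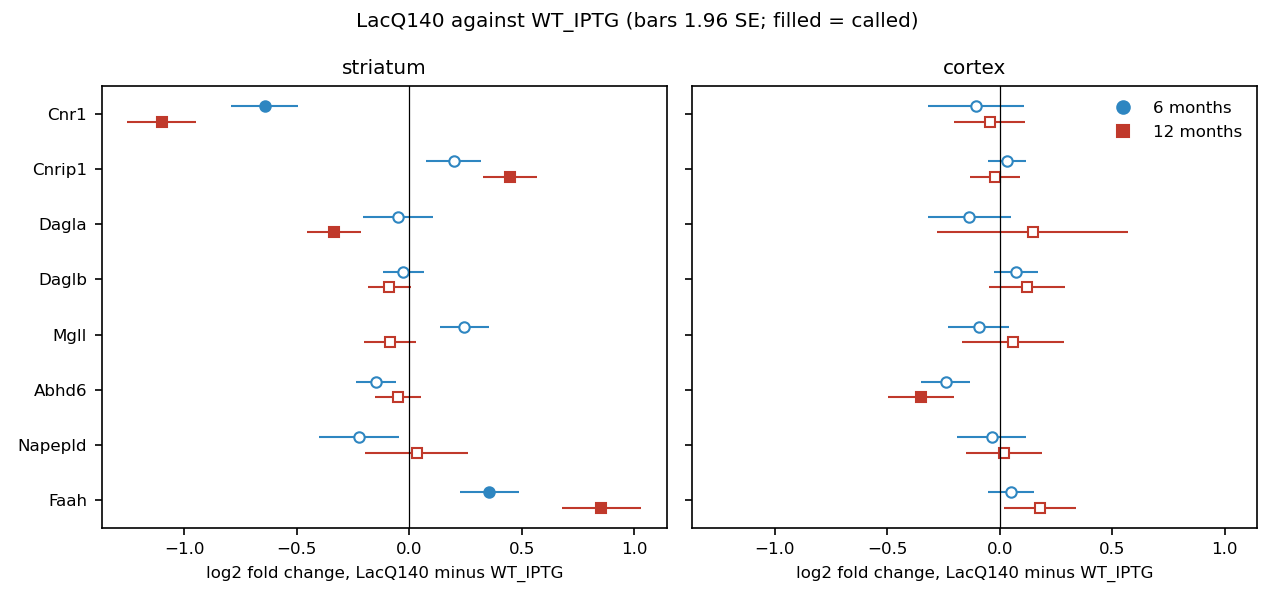
Log2 fold change of each gene in LacQ140 against WT_IPTG (x axis) in striatum (left) and cortex (right), at 6 months (circles) and 12 months (squares). Bars are approximate 95% intervals and filled points are called; striatal *Cnr1* lies at -0.64 and -1.10 and striatal *Faah* at 0.35 and 0.85, whereas in cortex the 1 filled point is *Abhd6* at 12 months (-0.35).

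All of these are bulk tissue values, in which fewer cells of a type and less RNA per cell cannot be told apart. Of 9 listed marker genes of striatal spiny neurons, 8 were called lower in LacQ140 at 6 months (median log2 fold change -0.39) and 8 at 12 months (median -0.82), and none was higher. Their summed level at 12 months was 7357 to 10340.8 CPM in WT_IPTG and 4262 to 5343 CPM in LacQ140, without overlap, and at 6 months 6028 to 8947 against 4888 to 6273 CPM. Over all 39 marker genes, 1 rose and 19 fell at 6 months and 2 rose and 13 fell at 12 months. At 6 months 3 of 5 oligodendrocyte, 3 of 5 microglial, 2 of 5 interneuron and 1 of 5 astrocyte markers were lower, and at 12 months 2 oligodendrocyte markers and 1 each of microglia, astrocytes and endothelium were. The part of these shifts in the 8 genes' changes was not tested.

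*Cnrip1* and *Faah* have higher levels in cortex than in striatum, so cortical markers were also read. Among 6 genes of cortical projection neurons, 2 were called higher in 12-month LacQ140 striatum, *Cux2* among them, and at 6 months 1 was higher and 2 were lower. At 6 months the list had a median sum of 63.3 CPM in WT_IPTG and 37.2 CPM in LacQ140. At 12 months it summed to 30.97 to 110.5 CPM in WT_IPTG (median 43.2) and to 39.8 to 350.5 CPM in LacQ140 (median 45.4), and to 372 to 1180 CPM in 12-month cortex libraries. The value of 350.5 CPM belonged to LacQ140 male 2, which was also the highest mouse for *Cnrip1* (45.3 CPM) and for *Faah* (46.6 CPM). Without it the increase in *Cnrip1* was 0.39 (adjusted p = 4.2e-07) and that in *Faah* 0.79 (adjusted p = 1.1e-10), both still calls. Within groups, striatal *Cnr1* followed the library's length slope with r = 0.69 over 50 libraries at 6 months and 0.38 over 57 at 12 months, while the median slopes of WT_IPTG and LacQ140 were 0.23 and 0.24 at 6 months and 0.36 and 0.33 at 12 months.

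With mutant *Htt* lowered from conception or from 2 months, striatal *Cnr1* was higher than in LacQ140 at both ages, and it was the single member of the 8 called in each of these 4 comparisons. The shares of all genes called were 1.88% (LacQ140_A) and 1.26% (LacQ140_2M) at 6 months, and 0.91% and 0.608% at 12 months. At 6 months *Cnr1* was at 167.5, 187.7 and 209.3 CPM in LacQ140_A and at 142.7, 166.4 and 215.1 CPM in LacQ140_2M. LacQ140_A did not overlap LacQ140 (as in 0.279% of all genes), and 9 of 10 LacQ140_2M mice lay above the LacQ140 range. The increase over LacQ140 was 49.5% in LacQ140_A (log2 fold change 0.58, SE 0.076, adjusted p = 2.7e-07) and 42.3% in LacQ140_2M (0.51, SE 0.076, adjusted p = 1.2e-05).

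At 12 months *Cnr1* was at 112.9, 144.2 and 196.8 CPM in LacQ140_A, at 104.4, 132.3 and 157.3 CPM in LacQ140_2M and at 100.1, 121.2 and 135.5 CPM in LacQ140_8M. All 3 groups overlapped LacQ140, with 9 of 10, 9 of 10 and 6 of 9 mice above its range. *Cnr1* rose by 40.3% in LacQ140_A (log2 fold change 0.49, SE 0.077, adjusted p = 1.5e-05) and by 28.9% in LacQ140_2M (0.37, SE 0.076, adjusted p = 0.0031). The LacQ140_8M value of 0.21 (SE 0.078, adjusted p = 0.86) was not called, in a comparison with 0.00565% of all genes called, 0 of the 8 members called by edgeR or DESeq2, and 1 member, *Cnr1*, at an unadjusted p under 0.05. Its approximate 95% interval ran from 0.05 to 0.36. All 9 LacQ140_8M mice lay above the LacQ140 median.

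No member was called between the lowered groups that were compared. LacQ140_8M and LacQ140_A were not tested against each other. For *Cnr1*, LacQ140_8M minus LacQ140_2M was -0.16 (SE 0.076, adjusted p = 0.64), and LacQ140_2M minus LacQ140_A was -0.12 (SE 0.074, adjusted p = 0.77) at 12 months and -0.07 (SE 0.076, adjusted p = 0.85) at 6 months. These 3 comparisons called 0 of 8 members in both tools, against 0.0933%, 0.0509% and 0.0251% of all genes, with 2, 1 and 1 members at an unadjusted p under 0.05. The change of the lowering effect on *Cnr1* between the ages was -0.09 (SE 0.112, adjusted p = 1) for LacQ140_A and -0.14 (SE 0.112, adjusted p = 0.88) for LacQ140_2M. No member was called in these tests between the ages (0.136% and 0.0241% of all genes), and 1 and 2 members had an unadjusted p under 0.05.

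Spiny neuron markers moved beside *Cnr1* here as well. Against LacQ140, 8 of the 9 rose in LacQ140_A and 7 in LacQ140_2M at 6 months, 4 rose in each at 12 months, and in LacQ140_8M 0 were called by edgeR, with 5 at an unadjusted p under 0.05. Of the 6 cortical projection neuron markers 1, *Cux2*, was called lower than in LacQ140 at 6 months, in LacQ140_A (-0.30, adjusted p = 0.045) and LacQ140_2M (-0.44, adjusted p = 0.0017), and no marker of the other lists was called. The summed level of the spiny neuron markers in the 12-month striatum was 5316 to 6954 CPM in LacQ140_A, 4263 to 6754 in LacQ140_2M and 4593 to 5840 in LacQ140_8M.

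**Figure D2:**
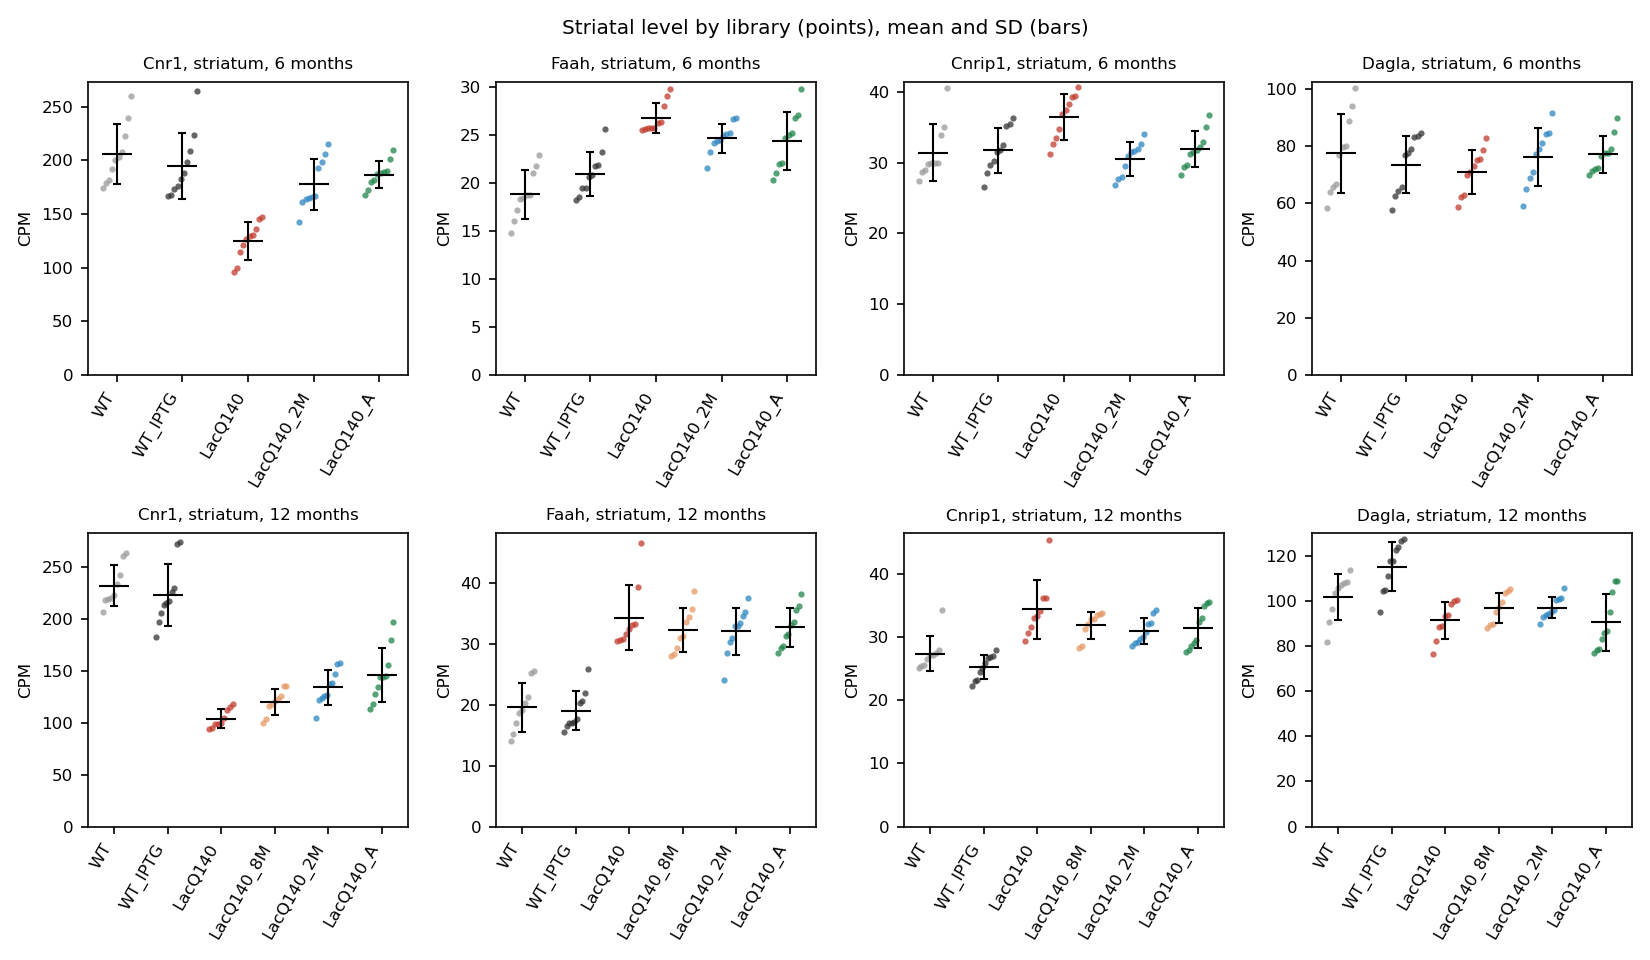
Striatal CPM (y axis, from 0) of *Cnr1*, *Faah*, *Cnrip1* and *Dagla* in every library by group (x axis), at 6 months (top) and 12 months (bottom), with bars for the mean and SD. *Cnr1* of the lowered groups overlaps the wild-type mice at 6 months and lies below all of them at 12 months except for 1 LacQ140_A mouse (196.8 CPM), whereas 12-month *Faah* is high in LacQ140 and in all lowered groups.

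None of the other members was called in these comparisons. *Faah* differed from LacQ140 by -0.13 (SE 0.066, adjusted p = 0.41) in LacQ140_A and -0.12 (SE 0.066, adjusted p = 0.52) in LacQ140_2M at 6 months. At 12 months the differences were -0.07 (SE 0.089, adjusted p = 0.83) in LacQ140_A, -0.10 (SE 0.089, adjusted p = 0.85) in LacQ140_2M and -0.09 (SE 0.091, adjusted p = 0.86) in LacQ140_8M, with approximate 95% intervals that together ran from -0.27 to 0.11. Median levels were 31.2 to 32.9 CPM in the lowered groups and 32.5 CPM in LacQ140. For *Cnrip1* the one difference that passed the adjusted p was LacQ140_2M at 6 months (26.8, 31.2 and 34.1 CPM in that group, log2 fold change -0.26, SE 0.063, adjusted p = 0.015), which at 16.3% was under the bound. *Dagla* differed from LacQ140 by -0.01 to 0.12 on the log2 scale over the 5 lowering comparisons of both ages, with no adjusted p under 0.61. *Mgll* was higher in 12-month LacQ140_2M (172.2, 206.7 and 230.1 CPM) than in LacQ140 by 0.23 (SE 0.059, adjusted p = 0.035), again under the bound.

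What remained of the LacQ140 difference was read against wild type, with WT as the control of LacQ140_A, which likewise never had IPTG, and WT_IPTG as the control of the others, although LacQ140_2M and LacQ140_8M mice no longer received IPTG when sampled. These comparisons share samples with those above and are given side by side with them. At 6 months *Cnr1* did not pass the test against wild type, at -0.14 (SE 0.076, adjusted p = 0.44) in LacQ140_A and -0.13 (SE 0.076, adjusted p = 0.49) in LacQ140_2M, with approximate 95% intervals of -0.29 to 0.01 and -0.28 to 0.01. *Faah* was the 1 member called in LacQ140_A against WT (20.4, 24.9 and 29.9 CPM against 14.9, 18.6 and 23.0 CPM in WT, log2 fold change 0.38, SE 0.067, adjusted p = 0.00067), where 0.91% of all genes were called. In LacQ140_2M against WT_IPTG (1.07% of all genes) 0 members were called in edgeR or DESeq2 and 3 had an unadjusted p under 0.05, *Faah* among them with 0.23 (SE 0.066, adjusted p = 0.053). WT mice had the lower *Faah* of the 2 controls, and against WT the LacQ140_2M value was 0.39 (adjusted p = 0.00021), a call.

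At 12 months *Cnr1*, at -0.67 in LacQ140_A (SE 0.076, adjusted p = 7.1e-10), -0.74 in LacQ140_2M (SE 0.074, adjusted p = 9.0e-12) and -0.90 in LacQ140_8M (SE 0.077, adjusted p = 9.3e-15), was below wild type in all lowered groups, and in none of them did a mouse reach the range of its control. *Faah* was above wild type by 0.74 (SE 0.091, adjusted p = 8.2e-09), 0.76 (SE 0.088, adjusted p = 1.0e-09) and 0.77 (SE 0.090, adjusted p = 6.5e-10) in the same order, and it overlapped its control in LacQ140_2M alone. *Cnrip1* was called in LacQ140_2M (0.29, SE 0.060, adjusted p = 0.00029) and LacQ140_8M (0.34, SE 0.062, adjusted p = 3.7e-05), without overlap in either, and not in LacQ140_A (0.20, SE 0.062, adjusted p = 0.047, under the bound). Against WT in place of WT_IPTG, neither *Cnrip1* value was a call (0.18, adjusted p = 0.077; 0.22, adjusted p = 0.013, under the bound). In all 2 of 8 members were called in LacQ140_A (3.15% of all genes), 3 in LacQ140_2M (6.43%) and 3 in LacQ140_8M (8.07%). Ranges were free of overlap in 0.735%, 0.938% and 2.06% of all genes. For *Dagla* the values were -0.25 in LacQ140_2M (adjusted p = 0.0026) and -0.25 in LacQ140_8M (adjusted p = 0.0024), both under the bound, and in LacQ140_A the value was -0.17 (adjusted p = 0.13). Against WT and WT_IPTG pooled, an alternative added after the data were seen, *Dagla* in LacQ140_A was at -0.26 (adjusted p = 0.00051), a call.

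**Figure D3:**
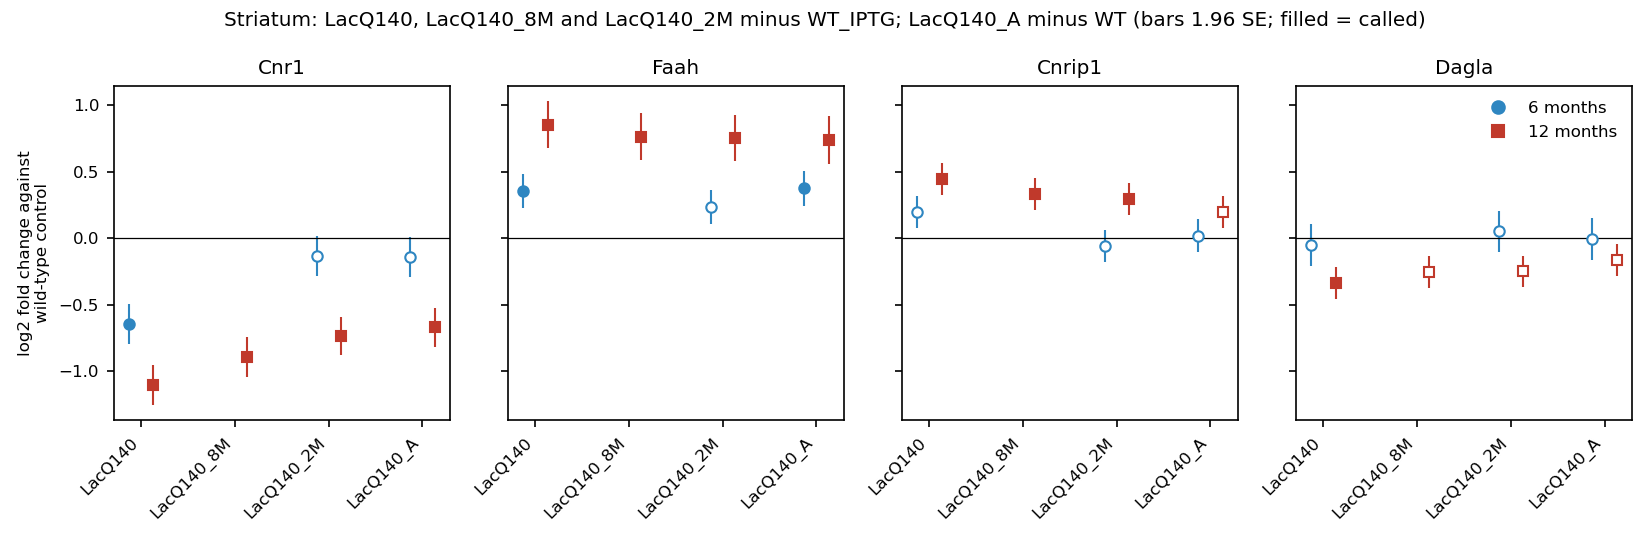
Striatal log2 fold change against the wild-type control (y axis) for LacQ140 and each lowered group (x axis), at 6 months (circles) and 12 months (squares), with approximate 95% intervals as bars and filled points for calls. At 12 months *Cnr1* runs from -1.10 in LacQ140 to -0.67 in LacQ140_A, while *Faah* stays between 0.74 and 0.85 in all 4 groups.

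In cortex *Abhd6*, and not the receptor, was the member that passed the test. LacQ140 against WT_IPTG called 0 of 8 at 6 months (0.881% of all genes) in edgeR and DESeq2, with 1 member, *Abhd6*, at an unadjusted p under 0.05. At 12 months it called 1 of 8, *Abhd6* again, where 0.0899% of all genes were called. *Cnr1* had medians of 78.05 CPM in WT_IPTG and 72.6 CPM in LacQ140 at 6 months, and 58.7 and 57.5 CPM at 12 months. The differences were -0.10 (SE 0.109) and -0.04 (SE 0.080), with approximate 95% intervals of -0.32 to 0.11 and -0.20 to 0.11. Both intervals lie above the striatal values of the same ages. *Faah* in cortex differed by 0.18 at 12 months (SE 0.082, adjusted p = 0.52), with medians of 56.4 and 64.04 CPM. The cortical LacQ140 effect of 0 of 8 members differed between the ages in edgeR (0.00268% of all genes), and 0 had an unadjusted p under 0.05.

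The striatal effect was tested against the cortical one in the same mice. At 6 months the effect on *Cnr1* was lower in striatum by 0.55 (difference of log2 fold changes -0.55, SE 0.114, adjusted p = 0.0084), and the effects on *Faah* (0.29, SE 0.075, adjusted p = 0.042) and *Mgll* (0.33, SE 0.080, adjusted p = 0.030) were higher. These 3 of 8 stood beside 1.43% of all genes, a share taken by the adjusted p alone. At 12 months 3 of 8 were again called, beside 3.51% of all genes. The differences were -1.08 for *Cnr1* (SE 0.106, adjusted p = 3.5e-09), 0.67 for *Faah* (SE 0.118, adjusted p = 0.00028) and 0.44 for *Cnrip1* (SE 0.096, adjusted p = 0.0035). For *Abhd6* the difference was 0.29 (SE 0.091, adjusted p = 0.073).

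*Abhd6* was the member with a change in cortex. At 6 months it was at 48.1, 53.6 and 60.5 CPM in WT_IPTG, at 40.6, 44.5 and 49.5 CPM in LacQ140, at 41.4, 51.05 and 54.4 CPM in LacQ140_2M, at 40.2, 42.3 and 50.2 CPM in LacQ140_A and at 44.4, 52.6 and 61.5 CPM in WT. The LacQ140 and LacQ140_A groups were low and overlapped their controls. LacQ140 was 15.4% below WT_IPTG (log2 fold change -0.24, SE 0.055, adjusted p = 0.015), under the bound, with 10 of 10 mice below the WT_IPTG median. LacQ140_A was below WT by 17.6% (log2 fold change -0.28, SE 0.055, adjusted p = 0.0077), a call. It was the 1 member of 8 called there, where 0.425% of all genes were called. This call was lost in a fit of those 2 groups alone (adjusted p = 0.075) and without WT male 3 or WT male 5.

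At 12 months *Abhd6* was at 56.6, 74.1 and 90.8 CPM in WT_IPTG and at 50.4, 57.6 and 67.6 CPM in LacQ140, with 10 of 10 LacQ140 mice below the WT_IPTG median and 4 below its range. The decrease was 21.5% (log2 fold change -0.35, SE 0.075, adjusted p = 0.028). The median length slope, which *Abhd6* ran against in these libraries, was -0.26 in WT_IPTG and -0.22 in LacQ140. With the slope as a covariate the decrease was -0.29 (adjusted p = 0.0026), still a call. WT mice without IPTG stood lower than WT_IPTG, at 54.2, 65.5 and 70.1 CPM, and against both controls pooled the difference was -0.24 (adjusted p = 0.16) and no call. The call was also lost in 6 of 20 fits that each left out 1 mouse, those without LacQ140 female 4, female 5 or male 2 or WT_IPTG female 3, female 4 or female 5, over which the value ran from -0.39 to -0.31 and the adjusted p from 0.0063 to 0.091. Values against WT_IPTG were -0.27 in LacQ140_2M (adjusted p = 0.17) and -0.29 in LacQ140_8M (adjusted p = 0.097). Those comparisons (0.162% and 0.0841% of all genes), LacQ140_A against WT (0.0174%) and, at 6 months, LacQ140_2M against WT_IPTG (0.0556%) called 0 of 8 members in edgeR, with 1 or 2 at an unadjusted p under 0.05, and DESeq2 called *Abhd6* in LacQ140_8M. Between the lowered groups of the cortex, compared in the same pairs as in striatum, no member was called in either tool (0.0556% of all genes at 6 months, 0.0841% and 0.0899% at 12 months). Of the members, 0 to 2 had an unadjusted p under 0.05. None of the 8 members was called in cortex for any lowered group against LacQ140 at either age, by edgeR or DESeq2, with 0 to 3 members at an unadjusted p under 0.05. The shares of all genes called were 0.00834% for LacQ140_A and 0% for LacQ140_2M at 6 months, and 0.0435%, 0.0841% and 0% for LacQ140_A, LacQ140_2M and LacQ140_8M at 12 months.

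**Figure D4:**
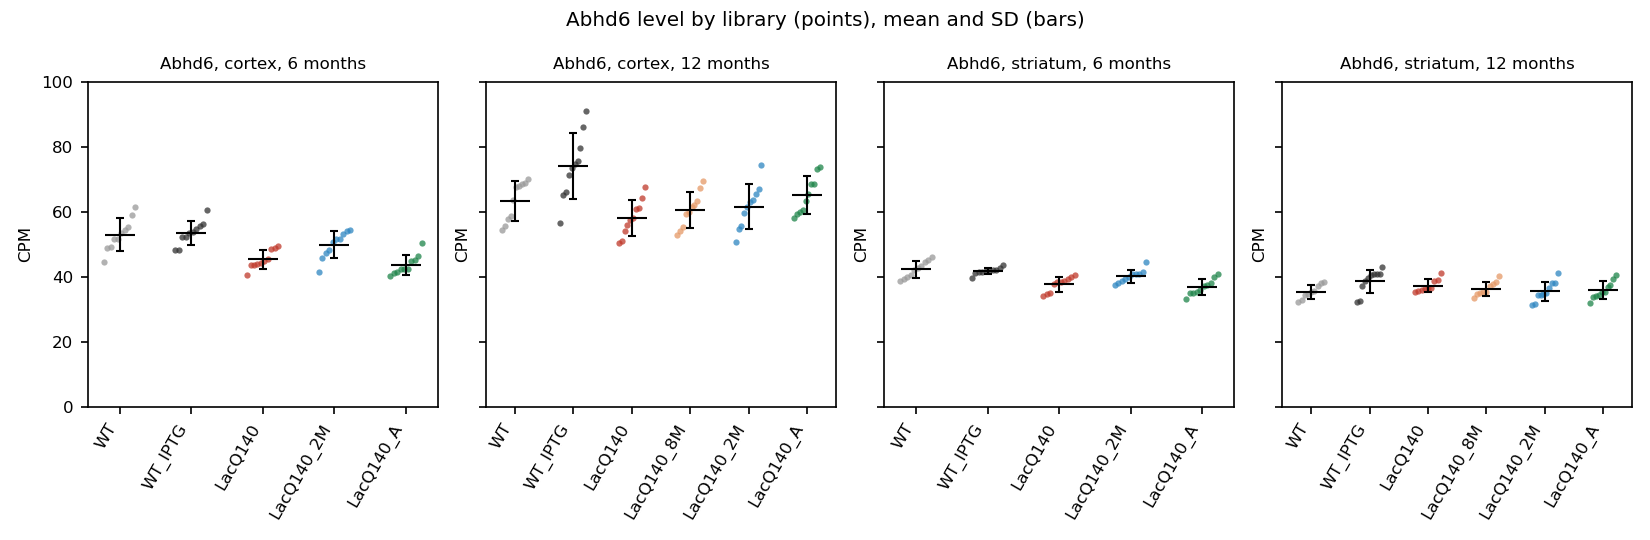
*Abhd6* CPM (y axis, from 0) in every library by group (x axis), in cortex and striatum at 6 and 12 months, with bars for the mean and SD. In cortex the LacQ140 medians (44.5 and 57.6 CPM) lie below those of WT_IPTG (53.6 and 74.1 CPM), and at 12 months the WT median (65.5 CPM) lies between them.

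Males and females were compared for the LacQ140 effect within each tissue and age. No member was called in any of the 4 tests in edgeR (0% to 0.00565% of all genes), and 1 value had an unadjusted p under 0.05, that of *Napepld* in the 12-month striatum (adjusted p = 0.40).

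A list of 35 further genes around the pathway was read in the same fits, covering other receptors, G proteins and regulators of CB1, the supply of diacylglycerol, other routes to and from anandamide, and lipid carriers. In the LacQ140 striatum 1 gene rose and 1 fell at 6 months (median log2 fold change -0.05, against 0 for all genes), and 3 rose and 7 fell at 12 months, where 7.93% and 9.44% of all genes were called. *Pla2g4e*, a calcium-dependent acyltransferase that makes the precursors of anandamide, was the 1 gene called at both ages. It was at 1.53, 2.78 and 3.34 CPM in 6-month WT_IPTG and 3.43, 3.97 and 5.28 CPM in LacQ140, without overlap (log2 fold change 0.63, SE 0.14, adjusted p = 0.00093). Its groups overlapped at 12 months, at 1.34, 2.35 and 2.82 CPM and 1.41, 3.04 and 5.51 CPM (0.53, adjusted p = 0.0042). *Ptgs2*, the inducible cyclooxygenase, which also oxidises 2-AG, rose at 12 months from a median of 2.55 to 3.49 CPM (0.52, adjusted p = 0.010).

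The genes that supply diacylglycerol to *Dagla* and *Daglb* held most of the decreases. Of 8, 5 fell at 12 months and 0 rose, with a median log2 fold change of -0.28, while at 6 months 1 fell (4.86% and 3.96% of all genes were called lower at 12 and 6 months). Among the 5, named after their values were seen, were *Plcb1* (-0.46), *Grm5* (-0.38), *Chrm1* (-0.30) and *Plcb3* (-0.27), receptors coupled to Gq and phospholipases of that route. *Ppara*, a nuclear receptor for fatty acid ethanolamides, fell from a median of 2.59 to 1.85 CPM (-0.49, adjusted p = 0.041). None of the 7 G proteins and regulators of CB1 was called at either age in edgeR, although at 12 months 5 had an adjusted p under 0.05 with changes under the bound (1 and 6 of 7 had an unadjusted p under 0.05 at 6 and 12 months). In the lowering comparisons 2 genes of the list were called higher in 6-month LacQ140_A than in LacQ140, where 1.88% of all genes were called, *Plcb1* (0.28, adjusted p = 0.0094) among them. In LacQ140 cortex the list gave *Pla2g4e* at 6 months (0.43, adjusted p = 0.023) and *Ptgs2* at 12 months (-0.49, adjusted p = 0.016), the latter with the opposite sign to striatum.

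**Figure D5:**
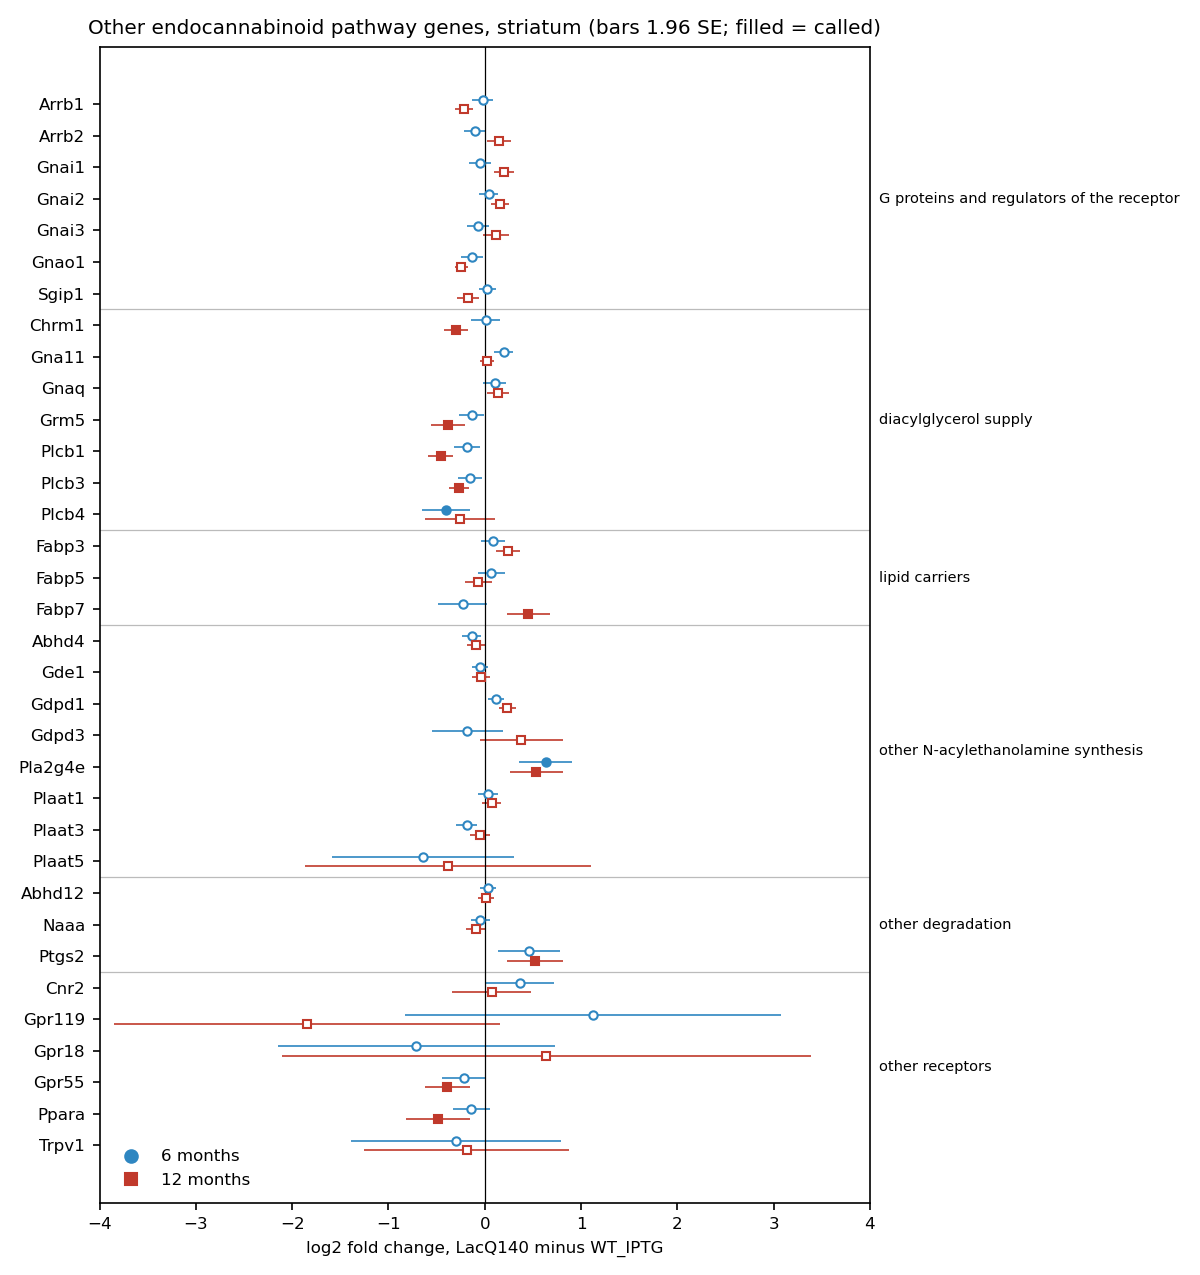
Log2 fold change in LacQ140 against WT_IPTG striatum (x axis) for genes of the list around the pathway, grouped by role, at 6 months (circles) and 12 months (squares), with approximate 95% intervals as bars and filled points for calls. The filled 12-month points left of 0 lie in the group that supplies diacylglycerol and among other receptors (2 of 6); the widest bars belong to genes with few counts.

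Over the 107 striatal libraries, centred on the mean of each age, each member was compared with 13282 expressed genes by Pearson's r of log2 CPM, as a description, since libraries of one group share their condition. *Cnr1* was most like *Scn4b* (0.94), *Kcnab1* (0.94) and *Pde10a* (0.93). *Faah* was most like *Smoc1* (0.89), *Osbpl5* (0.87) and *Acy3* (0.84), *Cnrip1* most like *Stmn2* (0.83), *Gng4* (0.82) and *Tubb2a* (0.82), and *Dagla* most like *Dab2ip* (0.92), *Pacsin1* (0.90) and *Rnf44* (0.88). The others had *Ptpn3* (0.80), *Plekhg1* (0.77) and *Patj* (0.75) for *Napepld*, *Fbxo31* (0.76), *Svop* (0.75) and *Fem1a* (0.74) for *Mgll*, *Srsf10* (0.73), *Dnaja1* (0.72) and *Cbx1* (0.72) for *Abhd6*, and *Calm3* (0.61), *Pgbd5* (0.61) and *Rxrb* (0.59) for *Daglb*. With the group means removed, the genes nearest to *Cnr1* were *Fam49a*, *Atp2b1* and *Pde7b* and those nearest to *Faah* were *Adgra1*, *Nr2f1* and *Nr2f2*, so that for these members none of the 3 nearest genes was shared, while *Dab2ip* and *Ptpn3* stayed first for *Dagla* and *Napepld*.

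Between members within striatal groups, r was -0.38 for *Cnr1* and *Cnrip1*, 0.35 for *Cnr1* and *Dagla*, -0.28 for *Cnr1* and *Faah*, 0.41 for *Cnrip1* and *Faah* and -0.45 for *Mgll* and *Napepld*, over 107 libraries that share depth and length slope with the genes compared. Within cortical groups *Dagla*, *Daglb*, *Mgll* and *Faah* had r between 0.51 and 0.79 with one another over 110 libraries, and *Abhd6* had -0.53 with *Mgll*. *Daglb* overlaps *Rac1*, *Cnrip1* overlaps *Plek*, and *Mgll* and *Napepld* overlap noncoding or pseudogene annotations, and the strand setting of the counting is not given in the sources used here, so reads in the shared parts may belong to either gene.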

How the data were processed

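Total RNA of striatum and cortex was sequenced on an Illumina NovaSeq system. The authors deposited expected counts per gene in 1 table per age, without normalization; 26.79% of nonzero values were not whole numbers (tolerance 0.001), and the aligner and counting program are not given in the sources used here. Gene IDs were matched to GENCODE vM21 on GRCm38 (54495 of 54532), the build named in the submitters' processing notes. Samples were grouped by their labels. Counts were rounded, genes with at least 1 count kept, and all groups of a tissue and age fitted together with edgeR 4.0.16 (TMM, quasi-likelihood F-test, R 4.3.3). The SE is the absolute log2 fold change over the square root of F, and approximate 95% intervals assume normal errors. Differences between tissues were fitted with the mouse as a block. The script was tested on simulated data. Alternatives were DESeq2 1.42.0, filterByExpr, other size factors, sex, a replicate block, a length slope, other controls, only the groups compared, no fold bound, and each library left out.

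The 8 genes were given by name, and they, the 35 pathway genes, the 39 markers and the tests were chosen with earlier results of these data known. Besides the members, the text names pathway genes called at both ages, the 2 largest changes each way, and the 3 genes most like each member. Other pathway genes and *Cux2* were named after their values were seen. In each of the pathway and marker lists 1 gene is counted but not reported here. Labels name no litters, so p-values measure the spread between mice. Promoters were taken from RefSeq on GRCm38.p6, where 7 of the 8 genes had an entry. Intervals cover sampling of mice and counting together.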

Additional observations from a re-analysis of the deposited data

Results flagged for a closer look

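Of 176 sets of 1 member in 1 group, 10 held a mouse that stood apart from the rest by Dixon's test, which chance does in about 1 of 20 sets. *Cnrip1* was high in 12-month WT striatum of male 1 (34.3 CPM, the next mouse at 28.0), in 12-month LacQ140 striatum of male 2 (45.3, next 36.2) and in 12-month LacQ140_8M cortex of male 3 (117, next 107). *Napepld* was high in 12-month striatum of WT_IPTG female 3 (13.6 CPM, next 9.31), LacQ140_2M female 4 (14.4, next 9.61) and LacQ140_8M female 2 (11.7, next 9.03), and low in 6-month WT cortex of male 4 (11.9, next 15.7). *Mgll* was high in 6-month WT_IPTG striatum of male 4 (204 CPM, next 170). Without that mouse *Mgll* (higher) and *Napepld* (lower) were also called in 6-month LacQ140 striatum. For *Napepld* WT_IPTG was the higher control, with a median of 8.88 CPM, against 7.33 in WT and 7.99 in LacQ140. *Mgll* was low in 12-month LacQ140_A striatum of male 5 (155, next 176), and *Daglb* was high in 6-month LacQ140_A striatum of female 4 (36.5 CPM, next 32.5).

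The LacQ140 effect differed between striatum and cortex for *Cnr1* (-0.55), *Faah* (0.29) and *Mgll* (0.33) at 6 months, and for *Cnr1* (-1.08), *Faah* (0.67) and *Cnrip1* (0.44) at 12 months. Between 12 and 6 months in striatum it differed for *Cnr1* (-0.46), *Faah* (0.50) and *Mgll* (-0.33). All are differences of log2 fold changes called in edgeR's interaction test, and the same members stayed called with the library's length slope as a covariate, an alternative chosen after seeing the data. The age tests compare separately deposited tables.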

How the results depend on the processing

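The 6- and 12-month striatal calls of *Cnr1* and *Faah* in LacQ140 against WT_IPTG held in every refit, with each library left out and under each alternative, and no value changed direction while called. Over these leave-one-out fits *Cnr1* ran from -0.68 to -0.59 at 6 months and from -1.13 to -1.06 at 12 months, and *Faah* from 0.33 to 0.39 and from 0.79 to 0.91. *Cnrip1* (0.39 to 0.47) and *Dagla* (-0.36 to -0.31) kept their 12-month calls in them. With the adjusted p alone, members called were 5 in 6-month LacQ140 striatum against 2 with the fold bound, 1 against 0 in LacQ140 cortex, and 2 against 1 in striatal LacQ140_2M against LacQ140 at 6 and at 12 months and in LacQ140_A against WT at 6 months. At 12 months they were 3 against 2 in striatal LacQ140_A against WT, and 4 against 3 in LacQ140_2M and in LacQ140_8M against WT_IPTG. Other counts of members that moved were 3 for 12-month striatal LacQ140_A against WT and 3 for LacQ140 there (pooled controls), 2 for 12-month striatal LacQ140_2M and LacQ140_8M (WT as control), 4 for LacQ140_8M there (length slope), 0 for 6-month cortical LacQ140_A against WT (only 2 groups), 0 for 12-month cortical LacQ140 (pooled controls), 1 for 12-month cortical LacQ140_2M against WT_IPTG (length slope), 1 for LacQ140_8M there (DESeq2, filterByExpr) and 1 for 6-month striatal LacQ140_2M against WT. Leaving out 1 library moved the count to between 0 and 1 for 12-month cortical LacQ140, for 6-month cortical LacQ140_A against WT, for 6-month striatal LacQ140_2M against WT_IPTG and for WT_IPTG against WT in the 6-month striatum, to between 2 and 4 for 6-month striatal LacQ140, to between 3 and 4 for 12-month striatal LacQ140_2M and LacQ140_8M against WT_IPTG, and to between 1 and 2 for 6-month striatal LacQ140_2M against LacQ140. Marker genes called in cortical LacQ140 went from 0 to 3 (pooled controls), 2 (length slope) and 2 (no fold bound) at 6 months, and from 1 to 2 (DESeq2), 0 (pooled controls), 2 (filterByExpr), 4 (length slope) and 4 (only 2 groups) at 12 months. The causes were not tested.

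The main fits did not use replicate numbers as pairs. Same-numbered mice correlated with a median of 0.04 and 0.06 in striatum and 0.09 and 0.05 in cortex at 6 and 12 months. For other pairs the medians were -0.007 and -0.017 in striatum and -0.004 and -0.003 in cortex. Same-numbered mice were also of the same sex, so number and sex cannot be told apart in this. With the replicate block, the counts of members called stayed at 2 and 4 in LacQ140 striatum and 1 in 12-month LacQ140 cortex, and the block changed no other member count. Of 2352 member values under other alternatives 2331 kept their call, and of 3128 with a library left out 3100 did. At 9 or 10 mice a group, the SE of the 8 genes in striatum lay near 0.05 to 0.12 on the log2 scale. Changes of under 1.2-fold were kept from being called by the fold bound, also where their adjusted p was under 0.05.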
